A study of Homo sapiens with 8 samples.

Results

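The TRIM family is a group of proteins defined by a tripartite motif, in which a RING finger, 1 or 2 B-box zinc fingers and a coiled coil precede a variable end. Most members are E3 ubiquitin ligases: the RING finger recruits an enzyme loaded with ubiquitin and the variable end picks the substrate. Many TRIM genes are switched on by interferon and act in antiviral defence in myeloid cells, where they tag viral proteins or the sensors of viral RNA and DNA, while others regulate chromatin, microtubules or the stability of RNA. The members described here are the 48 genes whose symbol starts with TRIM and a number, out of 16726 genes listed in both deposited tables. They comprised 10 genes known to be induced by interferon (TRIM5, TRIM14, TRIM21, TRIM22, TRIM25, TRIM26, TRIM34, TRIM38, TRIM56 and TRIM69), 37 other coding genes and 1 antisense RNA gene, TRIM52-AS1.

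Poly(A) RNA was sequenced from NB4 and MM6 (MonoMac 6), established human acute myeloid leukaemia lines, in 8 libraries. The groups were NB4 with shM14, NB4 with shNS, MM6 with shM14 and MM6 with shNS, with 2 libraries each. The hairpin shM14 (labelled shM14-#2) targets METTL14, a subunit of the enzyme that methylates adenosine in RNA, and shNS is a non-specific hairpin. All 4 groups carried a lentiviral pLKO.1 hairpin and had been selected in 0.5 µg/mL puromycin for 2 passages. The knockdown groups rest on 1 hairpin sequence, and whether the 2 libraries of a group came from separate cultures is not stated, so the p-values below reflect how far apart these particular libraries lie.

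METTL14 was at 8.35 ± 0.00266 RPKM in NB4 with shM14 and 13.3 ± 1.12 RPKM in NB4 with shNS, and at 6.54 ± 0.00383 and 12.9 ± 0.599 RPKM in the same groups of MM6 (SD, n = 2 each), where RPKM is reads per kilobase of gene and 1000000 reads. Depth was 23272126 to 28814911 reads per library over the listed genes. The monocyte markers, 5 of 5 listed and none at 0, summed to 122 RPKM in both NB4 shM14 libraries, against 43.3 to 45.4 RPKM in NB4 with shNS. In MM6 they summed to 8244 to 14430 RPKM with shM14, against 5896 to 9292 RPKM with shNS. LYZ was the largest part in every group, at 83.4 and 84.6 RPKM in NB4 with shM14 and 19.8 and 21.4 RPKM with shNS. In MM6 LYZ made up nearly all, at 14301 and 8164 RPKM with shM14 and 9206 and 5836 RPKM with shNS, which overlap. CD14 there was at 63.2 and 36.3 RPKM with shM14 and 14.7 and 12.2 RPKM with shNS. CSF1R and FCGR2A were also higher with shM14 without overlap and CD68 overlapped, but none of the 5 passed in MM6. The promyelocyte markers, 5 of 5 listed, summed to 2318 to 2361 RPKM in NB4 with shM14 and 2567 to 2666 RPKM in NB4 with shNS, most of it MPO. They did not move as 1: in NB4 PRTN3 rose (1.48), CTSG (-2.51), AZU1 (-0.26) and MPO (-0.20) fell, and ELANE did not pass. ELANE had 1 and 148 reads in NB4 with shM14 and 1 and 182 reads in NB4 with shNS, nearly absent from library 1 of both groups. In MM6 the promyelocyte markers summed to 4636 to 5021 RPKM with shM14 and 4368 to 4551 RPKM with shNS, most of it ELANE, PRTN3 and AZU1. MPO there was at 35.1 and 67.0 RPKM with shM14 and 69.6 and 103 RPKM with shNS. NB4 is known as a promyelocytic line, and both lines carry the label acute monocytic leukemia. Of 3 T cell markers 1 was listed, CD3D, at 45 to 60.6 RPKM in NB4 and at most 0.0566 RPKM in MM6. The part of maturation state in the results on TRIM genes was not tested, and in bulk libraries fewer cells expressing a gene and less RNA per cell cannot be told apart.

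The family was broadly expressed. In all 8 libraries 29 members had an RPKM of at least 1, and 10 members stayed under 1 in every library. TRIM28, also called KAP1, the corepressor that zinc finger proteins recruit to silence chromatin, was the most abundant, with 155 and 152 RPKM in NB4 with shM14 and 137 and 152 RPKM in NB4 with shNS. It had 104 and 122 RPKM in MM6 with shM14 and 104 and 118 RPKM in MM6 with shNS. TRIM25, TRIM22, TRIM65 and TRIM44 followed, with means over the 8 libraries of 50.6, 43.9, 27.9 and 24.9 RPKM. A gene was tested where 2 or more libraries of a comparison reached an RPKM of 1: 33 members in NB4 and 37 in MM6, the additional 4 being TRIM6, TRIM32, TRIM46 and TRIM59. The other 11 members were tested in neither line. Not all of these had few reads: TRIM39 was at 0.409 to 0.447 RPKM but had 257 to 331 reads per library. Changes are shM14 minus shNS in log2(RPKM + 1), a scale that understates the change of genes with low RPKM, and adjusted p-values are those of limma with Benjamini-Hochberg adjustment over all genes tested, with a threshold of 0.05. Groups said to be apart or not to overlap are 2 libraries against 2. The share of all genes whose groups lay apart in this way is not given here, so such a statement only describes the libraries.

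**Figure D1:**
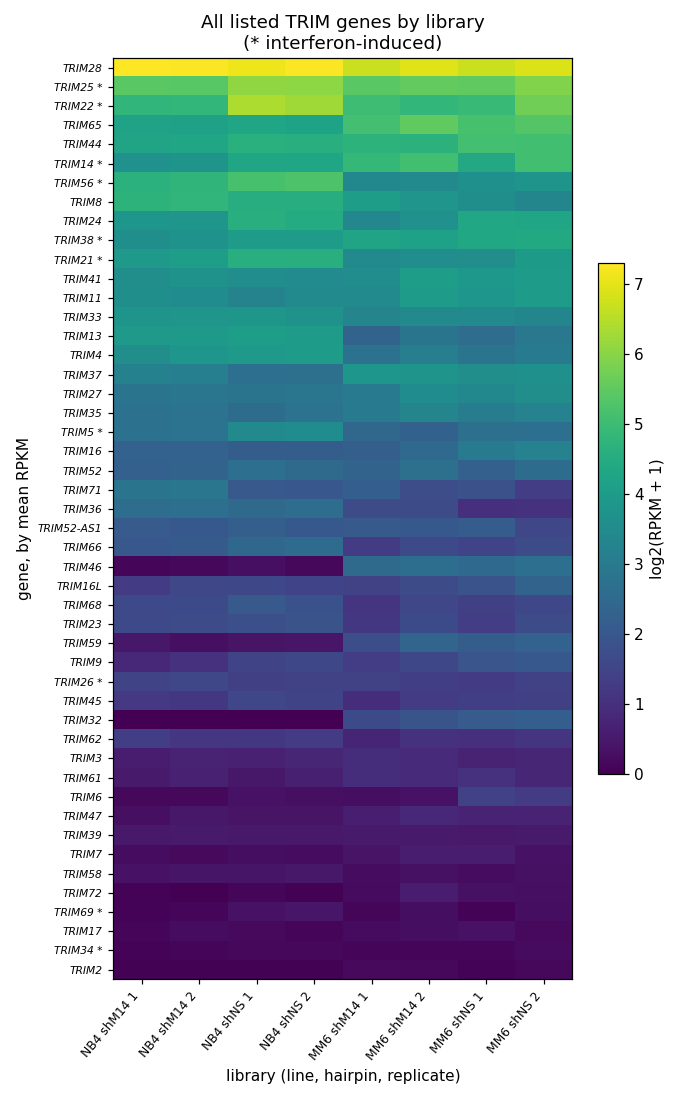
Heat map of log2(RPKM + 1) of the 48 TRIM genes (down the page) in the 8 libraries (across), with each shM14 group left of its shNS group and NB4 left of MM6. TRIM28 is the brightest gene throughout, TRIM22 is dimmer in NB4 with shM14 than in NB4 with shNS, and TRIM32, TRIM46 and TRIM59 are dark in all 4 NB4 libraries.

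Several of the interferon-induced genes hold the same short motif near their start sites. Interferon acts on many promoters through the interferon-stimulated response element, whose core was searched as GAAA, any 2 bases and GAAA on both strands of the RefSeq promoters of build GRCh38.p14, from 250 bases before to 50 after the start site. The core was found in 3.57% of 35116 promoters, and in at least 1 promoter of 4.38% of 27305 genes. Of the 10 interferon-induced TRIM genes 9 were matched to a promoter, and 6 of these held the core: TRIM5, TRIM14, TRIM21, TRIM26, TRIM34 and TRIM69. TRIM22 was the gene without a match, so its promoter was not searched. TRIM25, TRIM38 and TRIM56, whose RNA fell in NB4, were matched and did not hold the core. Of the 27 matched genes among the other coding members 3 held it: TRIM2, TRIM16 and TRIM44. A match is a description of the letters in this window. Shown are the promoters of 3 interferon-induced members whose RNA fell in NB4 (TRIM5, TRIM14, TRIM21), 1 whose RNA did not pass the test (TRIM26) and 1 gene from outside the list whose RNA fell (TRIM44), each 5′ to 3′ on the strand of the gene with the core in capitals. They lie at chr11:5685025-5685324 (minus strand), chr9:98119173-98119472 (minus strand), chr11:4393653-4393952 (minus strand), chr6:30213357-30213656 (minus strand) and chr11:35662525-35662824 (plus strand). A core on the opposite strand reads TTTC, any 2 bases and TTTC here.
TRIM5: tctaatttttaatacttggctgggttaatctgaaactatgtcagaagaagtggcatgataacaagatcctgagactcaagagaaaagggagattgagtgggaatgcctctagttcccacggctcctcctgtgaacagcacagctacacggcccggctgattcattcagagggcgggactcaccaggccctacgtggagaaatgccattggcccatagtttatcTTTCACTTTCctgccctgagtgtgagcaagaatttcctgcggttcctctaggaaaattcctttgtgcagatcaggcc
TRIM14: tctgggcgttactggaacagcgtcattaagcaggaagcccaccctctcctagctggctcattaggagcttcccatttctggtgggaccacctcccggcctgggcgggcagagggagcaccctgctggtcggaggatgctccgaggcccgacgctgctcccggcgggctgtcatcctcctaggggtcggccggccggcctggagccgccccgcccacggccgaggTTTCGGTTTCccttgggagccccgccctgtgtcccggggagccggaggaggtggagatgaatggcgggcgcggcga
TRIM21: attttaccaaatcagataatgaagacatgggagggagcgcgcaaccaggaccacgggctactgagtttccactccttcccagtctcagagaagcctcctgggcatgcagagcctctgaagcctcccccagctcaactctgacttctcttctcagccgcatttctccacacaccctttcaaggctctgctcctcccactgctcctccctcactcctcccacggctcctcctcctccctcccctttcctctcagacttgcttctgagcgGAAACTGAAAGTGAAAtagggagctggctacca
TRIM26: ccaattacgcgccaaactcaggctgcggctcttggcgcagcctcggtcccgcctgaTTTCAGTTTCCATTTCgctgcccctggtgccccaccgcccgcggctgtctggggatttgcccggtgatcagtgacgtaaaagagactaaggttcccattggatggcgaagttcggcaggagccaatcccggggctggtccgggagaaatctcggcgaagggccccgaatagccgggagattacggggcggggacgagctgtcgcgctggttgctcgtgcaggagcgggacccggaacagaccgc
TRIM44: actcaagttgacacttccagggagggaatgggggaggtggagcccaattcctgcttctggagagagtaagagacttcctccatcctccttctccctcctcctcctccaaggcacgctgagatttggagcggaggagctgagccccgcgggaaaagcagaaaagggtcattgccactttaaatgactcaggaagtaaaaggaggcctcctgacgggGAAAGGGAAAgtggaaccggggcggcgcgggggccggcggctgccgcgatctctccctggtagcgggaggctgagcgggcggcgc
In TRIM5 and TRIM14 the core began 27 and 26 bases before the start site. In TRIM21 a pair of overlapping cores began at bases 18 and 24 of the transcript, in TRIM26 an overlapping pair began 194 and 188 bases before the start site, and in TRIM44 the core began 35 bases before the RefSeq start. For TRIM44 this start is uncertain: the stretch just after it was found in 0 of 2 TRIM44 transcripts of GENCODE release 29.

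TRIM22 had the largest change of the tested members in NB4. This interferon-induced ligase is known for restricting the transcription of retroviruses. TRIM22 (gene 10346) had 26.7 and 27.4 RPKM in NB4 with shM14, against 82.5 and 75.1 RPKM in NB4 with shNS. The groups were far apart: knockdown held 0.343 times the control mean, and the change was -1.51 (SE 0.06, adjusted p = 0.00028). The MM6 levels were 31.6 and 27.3 RPKM with shM14 and 29.9 and 51.1 RPKM with shNS. Here the first control library lay between the knockdown libraries and the second was well above them, and the change of -0.40 (SE 0.27, adjusted p = 0.58) did not pass. Leaving out MM6 control library 2 gave -0.02, and leaving out control library 1 gave -0.78, neither past the threshold. Of the RPKM of all TRIM genes, TRIM22 made up 5.51% and 5.58% in NB4 with shM14, against 13.8% and 12.5% in NB4 with shNS. In MM6 its share was 7.20% and 5.46% with shM14 and 6.34% and 9.25% with shNS.

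In NB4 most of the other interferon-induced members also fell, by less than TRIM22. Among the 8 that could be tested, 7 were called lower, 0 higher and 1 was not called. Over all genes tested in NB4, 47.4% were called, 22.1% as higher and 25.2% as lower, so a call alone was common in this line. The median change of the 8 genes was -0.57, against -0.01 over all genes tested. TRIM5, the ligase that recognises retroviral capsids, had 5.71 and 5.85 RPKM in NB4 with shM14 and 10.3 and 10.7 RPKM in NB4 with shNS, a change of -0.76 (SE 0.05, adjusted p = 0.00065). TRIM25, which ubiquitinates the RNA sensor RIG-I, had 41.7 and 41.0 RPKM with shM14 and 66.1 and 64.7 RPKM with shNS, a change of -0.65 (SE 0.05, adjusted p = 0.00081). TRIM21, a cytosolic receptor for antibody-coated virus, had 14.2 and 15.8 RPKM with shM14 and 23.4 and 22.8 RPKM with shNS, a change of -0.59 (SE 0.06, adjusted p = 0.0024). In these 3 genes both knockdown libraries were below both controls.

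The 3 remaining genes that fell changed by less. TRIM14, an adaptor in mitochondrial antiviral signalling that lacks a RING finger, had 11.9 and 12.8 RPKM in NB4 with shM14 and 18.5 and 18.5 RPKM in NB4 with shNS (change -0.55, adjusted p = 0.0017). TRIM56, a ligase of antiviral defence, had 24.4 and 26.2 RPKM with shM14 and 34.8 and 37.0 RPKM with shNS (change -0.49, adjusted p = 0.0033). TRIM38, a regulator of Toll-like receptor signalling, had 11.4 and 12.1 RPKM with shM14 and 14.9 and 15.1 RPKM with shNS (change -0.33, adjusted p = 0.0059). TRIM26, which regulates the antiviral transcription factor IRF3, was the exception: it had 1.81 and 1.95 RPKM with shM14 and 1.58 and 1.66 RPKM with shNS, a change of 0.14 (adjusted p = 0.079). Its low RPKM did not mean few reads: it had 1650 and 1579 reads with shM14 and 1207 and 1555 reads with shNS. TRIM26 did not pass on log2(RPKM + 1), which understates the change of genes with low RPKM. Voom on reads recovered from the values gave 0.22 (adjusted p = 0.0022). The log2 fold change of TRIM26 in the authors' deposited table is 0.24 (adjusted p = 0.0002). The 7 calls held with each NB4 library left out in turn, but TRIM14 was not called with all 8 libraries in 1 model (adjusted p = 0.12). In the reference annotation TRIM22 and TRIM5 overlap on opposite strands, and TRIM25 and TRIM14 overlap other genes. Since the strand of counting is not stated, reads may be shared there.

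TRIM69 and TRIM34 were too low for the test. TRIM69, an inhibitor of several RNA viruses, had 3 and 5 reads in NB4 with shM14, against 15 and 25 reads in NB4 with shNS. The authors' deposited table gives it a log2 fold change of -2.27 in NB4 (adjusted p = 1.4e-04). In MM6 it had 5 and 11 reads with shM14 and 3 and 12 reads with shNS, and these groups overlap. TRIM34, a relative of TRIM5, had 3 and 6 reads in NB4 with shM14 and 7 and 9 reads in NB4 with shNS. In MM6 it had 5 and 4 reads with shM14 and 4 and 10 reads with shNS. With 10 reads or fewer in each library, a difference in TRIM34 was not detectable at this depth. Of the 10 interferon-induced members 9 were under an adjusted p of 0.05 for NB4 in the authors' deposited table, 8 lower and TRIM26 higher, where 43.6% of all genes were, 22.1% higher and 21.5% lower.

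**Figure D2:**
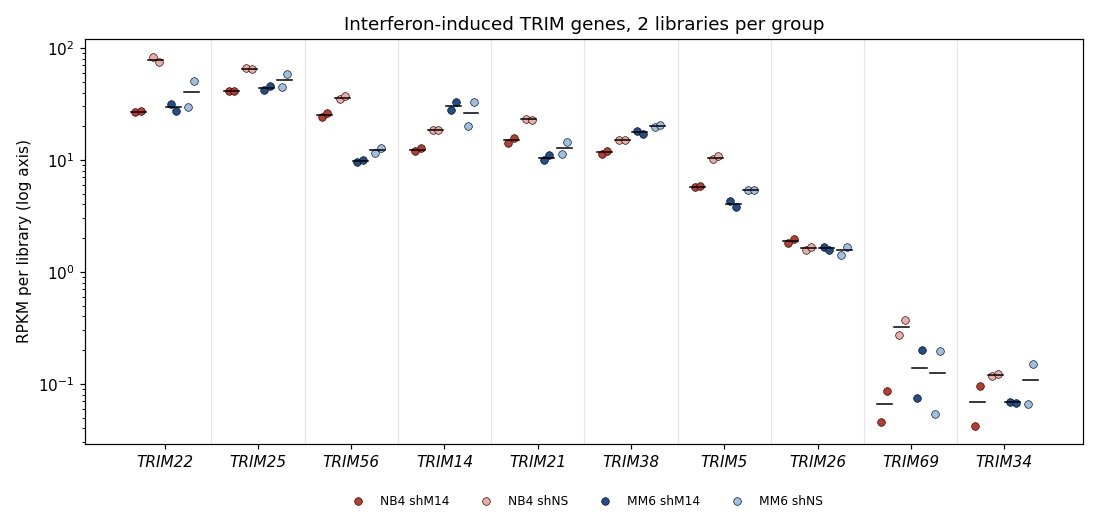
RPKM (log axis) of the interferon-induced TRIM genes in each library, with bars at the mean of 2 libraries. In NB4 the shM14 points lie below the shNS points for TRIM22, TRIM5, TRIM25, TRIM21, TRIM14, TRIM56 and TRIM38, whereas in MM6 the second shNS library of TRIM22 stands above the other 3.

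In MM6 fitted alone, no member was called by limma, neither among the 8 interferon-induced genes tested nor among all 37 tested members. Over all genes 0.0757% were called, 0.0504% as higher and 0.0252% as lower. At an unadjusted p under 0.05 there were 9 members, 1 of them interferon-induced, where 1779 of 11895 genes (15%) were, and voom on recovered reads called 0 members. The model mattered here: with all 8 libraries in 1 limma model, which estimates 1 spread for both lines, 7 of the 37 members passed in MM6, as did 11.1% of all genes. They were TRIM5 (adjusted p = 0.046), TRIM6 (0.0021), TRIM9 (0.046), TRIM16 (0.011), TRIM24 (0.0095), TRIM36 (0.0059) and TRIM44 (0.021). The replicates lay further apart than in NB4: across genes the SD of the difference between the libraries of a group was 0.37 with shM14 and 0.34 with shNS in MM6, against 0.13 and 0.15 in NB4. In MM6 this difference between library 1 and library 2 was partly shared by the hairpins, with a correlation of 0.69 across genes. The median change of the 8 interferon-induced genes was -0.25, against -0.03 over all genes. It was -0.06 without MM6 control library 2 and -0.34 without control library 1. Over the 28 other coding members tested it was -0.14. Without MM6 knockdown library 1 the other coding members had 0.06 and the interferon-induced genes -0.22. Without knockdown library 2 the other coding members had -0.34 and the interferon-induced genes -0.275. Which list was lower in MM6 thus depended on the libraries kept. TRIM5 had 4.32 and 3.79 RPKM with shM14 and 5.40 and 5.39 RPKM with shNS (-0.34, adjusted p = 0.33), and TRIM56 9.5 and 10 RPKM with shM14 and 11.6 and 12.7 RPKM with shNS (-0.29, adjusted p = 0.4). For both genes each knockdown library was below each control.

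The remaining interferon-induced members did not pass in MM6 either. TRIM25 had 42.0 and 45.5 RPKM with shM14 and 44.6 and 58.9 RPKM with shNS (-0.23, adjusted p = 0.65). TRIM21 had 9.90 and 11 RPKM with shM14 and 11.2 and 14.6 RPKM with shNS (-0.27, adjusted p = 0.56). In both genes control library 2 was the highest of the 4 MM6 libraries, and for TRIM25 the groups overlapped. TRIM38 had 18.3 and 17.0 RPKM with shM14 and 19.9 and 20.7 RPKM with shNS (-0.19, adjusted p = 0.59), without overlap. TRIM14 had 28.0 and 32.9 RPKM with shM14 and 20.3 and 32.6 RPKM with shNS, and TRIM26 1.68 and 1.56 RPKM with shM14 and 1.43 and 1.68 RPKM with shNS. The changes of TRIM14 (0.23) and TRIM26 (0.04) did not pass and became -0.10 and -0.03 without MM6 control library 1.

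Taken as a sum, interferon effector genes were high in the same 3 libraries as TRIM22. The summed RPKM of ISG15, IFIT1, IFIT3, MX1, OAS1 and USP18, genes known as direct interferon targets, was 289.5 and 284 in NB4 with shM14, against 686 and 715 in NB4 with shNS. In MM6 it was 274 and 216 with shM14, against 331 and 624 with shNS. MM6 control library 2, the highest of the MM6 libraries for TRIM22, was thus also the highest for the effectors, and the part of this library's interferon state in the MM6 values was not tested. The interferon-induced TRIM genes summed to 138 and 143 RPKM in NB4 with shM14, against 252 and 246 RPKM in NB4 with shNS. The other members summed to 343 and 345 RPKM in NB4 with shM14, against 341 and 354 RPKM in NB4 with shNS. In MM6 the interferon-induced genes summed to 145 and 149 RPKM with shM14, against 144 and 198 RPKM with shNS.

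**Figure D3:**
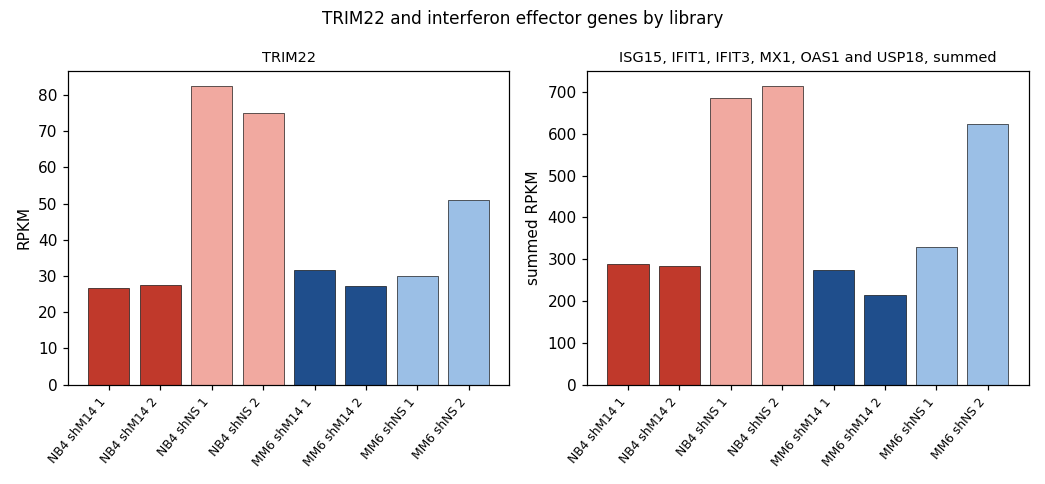
Bars give the RPKM of TRIM22 (left) and the summed RPKM of 6 interferon effector genes (right) in each of the 8 libraries, both axes from 0. Both NB4 shNS libraries have the tallest bars in both panels, and MM6 shNS library 2 is the tallest of the 4 MM6 libraries in both.

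The wider interferon pathway, a list of 19 receptors, kinases, transcription factors, sensors and effectors that includes the 6 genes just summed, moved alongside in NB4. Lower were 14 of 19, higher 2, and 3 were not called, where 25.2% of all genes were lower and 22.1% higher, and the median change was -0.98, against -0.01 over all genes. DDX58, which encodes RIG-I, the sensor that TRIM25 modifies, had 29 and 28.8 RPKM in NB4 with shM14 and 95.6 and 90.5 RPKM in NB4 with shNS (-1.65, adjusted p = 0.00015). The 2 that rose were the receptor chains IFNAR1 (0.26) and IFNAR2 (0.52). In MM6 limma called none of the 19 (8 at an unadjusted p under 0.05, where 1779 of 11895 genes were, and a median of -0.68), with DDX58 at -0.86 (adjusted p = 0.16).

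Outside the interferon list, NB4 members changed in both directions. Higher were 3 of the 24 coding genes tested, lower 7, and 14 were not called, and the median change was -0.04. Their 10 calls were a share of 41.7%, near the 47.4% of all genes. Among all 33 tested members, the antisense RNA included, 3 rose and 14 fell. Fitting all 8 libraries in 1 model lowered these 17 calls to 11, where 15.3% of all genes were called. The 6 lost were TRIM14 (adjusted p = 0.12), TRIM66 (0.065), TRIM45 (0.11), TRIM52 (0.2), TRIM8 (0.32) and TRIM68 (0.22). Of the 37 other coding members 14 were under the threshold for NB4 in the authors' deposited table, 5 higher and 9 lower. Over all genes 43.6% were under it there, 22.1% higher and 21.5% lower.

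Among the TIF1 co-regulators of chromatin, TRIM24 and TRIM66 fell in NB4 while TRIM28 and TRIM33 did not pass. TRIM24, a bromodomain protein that binds nuclear receptors such as that of retinoic acid, had 13.1 and 12.9 RPKM in NB4 with shM14, against 23.5 and 21.2 RPKM in NB4 with shNS. The change was -0.73 (SE 0.06, adjusted p = 0.0013). In MM6 it had 9.32 and 11.8 RPKM with shM14 and 19.6 and 19.0 RPKM with shNS. The groups were again apart and the change was of like size, -0.82, but it did not pass (SE 0.16, adjusted p = 0.13). In the authors' deposited table it is -0.84 in MM6 with adjusted p = 0.010. TRIM66, a relative of TRIM24 that lacks a RING finger, had 2.91 and 3.21 RPKM in NB4 with shM14 and 4.36 and 4.81 RPKM in NB4 with shNS (-0.46, adjusted p = 0.0051). In the reference annotation it overlaps RPL27A on the opposite strand, and the strand counted is not stated. TRIM28 (0.09, adjusted p = 0.31) and TRIM33, a regulator of SMAD signalling (-0.02, adjusted p = 0.82), did not pass in NB4.

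Of the 5 listed members known to lack a RING finger, 3 fell in NB4, TRIM14, TRIM66 and TRIM44, where 47.4% of all genes were called. Of these only TRIM44 was also called with all 8 libraries in 1 model. TRIM44, which carries a zinc finger of the ubiquitin protease type and is known to protect partners from degradation, had 18.0 and 18.5 RPKM in NB4 with shM14 and 23.9 and 23.3 RPKM in NB4 with shNS (-0.36, SE 0.05, adjusted p = 0.0042). Its levels in MM6 were 25.3 and 24.5 RPKM with shM14 and 33.5 and 32.7 RPKM with shNS (-0.40, SE 0.13, adjusted p = 0.25). The groups did not overlap in either line. TRIM16 and TRIM16L did not pass in NB4, at 0.14 (adjusted p = 0.055) and -0.09 (adjusted p = 0.46). These are near-identical copies, so reads may be split between them.

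The microtubule-associated members, those with a COS box, gave 1 call among 2 tested in NB4, where 47.4% of all genes were called. TRIM9, a brain-enriched ligase of axon guidance, had 0.740 and 1.06 RPKM in NB4 with shM14 and 1.82 and 2.02 RPKM in NB4 with shNS (-0.62, SE 0.09, adjusted p = 0.0059). Its MM6 levels were 1.49 and 1.99 RPKM with shM14 and 2.77 and 3.02 RPKM with shNS (-0.51, adjusted p = 0.23). Each knockdown library was below each control of its line, at a low level throughout. TRIM36, a ligase of the sperm acrosome, did not pass in NB4 (0.07, adjusted p = 0.34).

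The 3 members that rose in NB4 were TRIM71, TRIM37 and TRIM8. TRIM71, an RNA-binding repressor of stem cells that the microRNA let-7 silences, had 6.02 and 6.33 RPKM in NB4 with shM14, against 3.06 and 2.91 RPKM in NB4 with shNS. Knockdown held 2.07 times the control mean (0.85, SE 0.05, adjusted p = 0.00058). For MM6 the levels were 3.55 and 2.29 RPKM with shM14 and 2.49 and 1.52 RPKM with shNS, which overlap (0.38, adjusted p = 0.54). TRIM37, a ligase of centrosome duplication, had 8.23 and 7.83 RPKM in NB4 with shM14 and 5.28 and 5.43 RPKM in NB4 with shNS (0.51, SE 0.05, adjusted p = 0.0018). TRIM8, a regulator of cytokine signalling, had 25.4 and 26.7 RPKM with shM14 and 22.2 and 22.5 RPKM with shNS (0.21, adjusted p = 0.022). The call of TRIM8 was lost without any 1 of the 4 NB4 libraries (adjusted p 0.052 to 0.15).

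Smaller decreases in NB4 concerned TRIM45, TRIM52 and TRIM68. TRIM45, which carries a filamin repeat, had 1.31 and 1.29 RPKM in NB4 with shM14 and 1.95 and 1.79 RPKM in NB4 with shNS (-0.32, adjusted p = 0.0069). TRIM52, a short member without the usual variable end, had 3.69 and 3.98 RPKM with shM14 and 5.37 and 4.75 RPKM with shNS (-0.32, adjusted p = 0.016). TRIM68, known as a coactivator of the androgen receptor, had 2.06 and 2.14 RPKM with shM14 and 3.11 and 2.56 RPKM with shNS (-0.30, adjusted p = 0.03). Without NB4 knockdown library 1, TRIM52 and TRIM68 had adjusted p of 0.078 and 0.11, and without knockdown library 2 TRIM68 had 0.076.

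**Figure D4:**
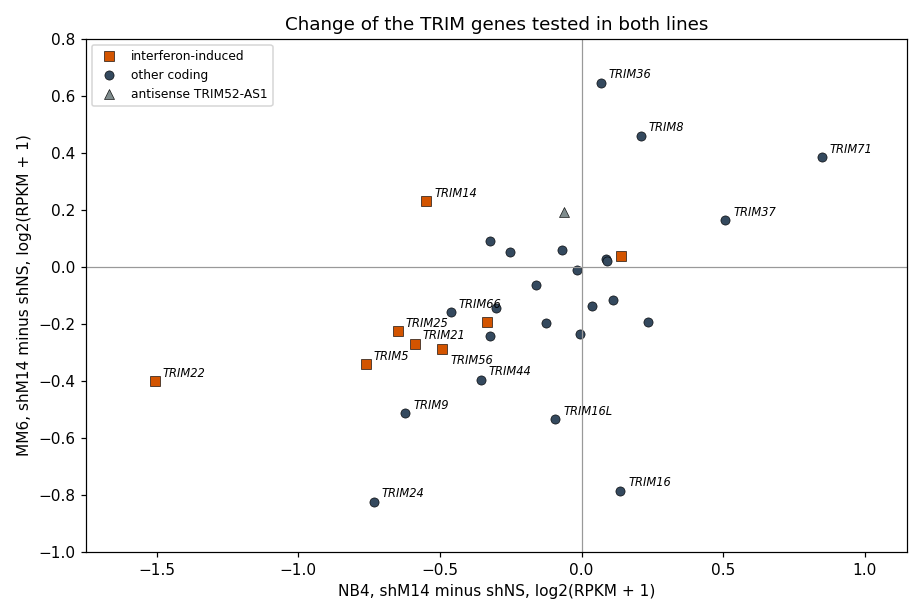
Change of each TRIM gene tested in both lines, as shM14 minus shNS in log2(RPKM + 1), in MM6 (vertical) against NB4 (horizontal). TRIM22 lies furthest left at -1.51 and -0.40, TRIM24 lies low in both lines, and TRIM16 is near 0 in NB4 and at -0.79 in MM6.

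Taking both lines in 1 additive model, 10 of 37 tested members were lower and 2 higher with shM14, a share of 32.4% against 11.9% of all genes, of which 4.8% were higher and 7.1% lower. The interferon-induced genes among them were TRIM22 (-0.95, adjusted p = 0.042), TRIM5 (-0.55, 0.013), TRIM25 (-0.44, 0.048), TRIM21 (-0.43, 0.039), TRIM56 (-0.39, 0.016) and TRIM38 (-0.26, 0.041). The other 4 that fell were TRIM24 (-0.78, adjusted p = 0.0032), TRIM44 (-0.38, 0.0087), TRIM9 (-0.57, 0.0088) and TRIM6 (-0.61, 0.047), and TRIM71 (0.62, 0.038) and TRIM37 (0.34, 0.041) rose. TRIM6 passed the filter only through the MM6 shNS libraries, where it was high, so its fall is not independent of the filter. Of the other coding members 6 of 28 were called (21.4%), and 5 of 27 without TRIM6 (18.5%). TRIM24, TRIM44 and TRIM9 were called under all 13 alternatives tried. TRIM6 was called under 3 of the 13 alternatives and lost with any 1 library left out (adjusted p 0.06 to 0.099), TRIM71 was called under 6 and TRIM37 under 5. Of the 6 interferon-induced calls, leaving out NB4 control library 2 gave 1, leaving out any other NB4 library gave 0, and leaving out MM6 control library 2 gave 2. Over all members those omissions of an NB4 library gave 3 or 4 calls, that of MM6 control library 2 gave 6 and that of MM6 knockdown library 1 gave 7.

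The change with knockdown differed between the lines for 3 of 37 members (8.11%, against 2.92% of all genes, 1.53% with a higher and 1.39% with a lower MM6 change), TRIM6, TRIM16 and TRIM36, none of them interferon-induced. The call of TRIM6 is not independent of the filter. Of the other coding members 3 of 28 were called (10.7%), and 2 of 27 without TRIM6 (7.41%). TRIM6, a ligase that forms free ubiquitin chains in interferon signalling, had 0.210 and 0.281 RPKM in MM6 with shM14, against 1.69 and 1.42 RPKM in MM6 with shNS (21 and 23 reads against 141 and 130 reads). Knockdown held 0.158 times the control mean in MM6. In NB4 it had 0.112 and 0.115 RPKM with shM14 and 0.292 and 0.237 RPKM with shNS (11 and 10 reads against 24 and 24 reads). It was lower with shM14 in both lines, yet low enough in NB4 to miss the filter there, and in MM6 it passed the filter only through the shNS libraries. The MM6 change of -1.03 did not pass (adjusted p = 0.078), while the authors' deposited table gives -2.63 in MM6 (adjusted p = 3.7e-08) and -1.17 in NB4 (adjusted p = 0.011). The difference, MM6 change minus NB4 change, was -0.85 (SE 0.12, adjusted p = 0.024), or -1.45 (adjusted p = 0.16) by voom on recovered reads. On this scale the low NB4 level narrows the NB4 change. TRIM6 overlaps TRIM34 through a readthrough transcript in the reference annotation.

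TRIM16, which marks damaged membranes for autophagy, had 3.61 and 4.61 RPKM in MM6 with shM14 and 7.23 and 8.35 RPKM in MM6 with shNS (-0.79, adjusted p = 0.15). In NB4 it had 3.89 and 3.86 RPKM with shM14 and 3.40 and 3.47 RPKM with shNS (0.14, adjusted p = 0.055). The groups were apart in both lines, lower with shM14 in MM6 and slightly higher in NB4, and the difference was -0.92 (SE 0.16, adjusted p = 0.037). Its near-copy TRIM16L had 1.73 and 2.17 RPKM in MM6 with shM14 and 2.63 and 4.01 RPKM in MM6 with shNS (-0.53, adjusted p = 0.31). TRIM36 had 2.2 and 2.15 RPKM in MM6 with shM14 and 0.983 and 1.07 RPKM in MM6 with shNS, 2.11 times the control mean (0.65, adjusted p = 0.14). In NB4 its levels were 5.09 and 5.27 RPKM with shM14 and 4.72 and 5.08 RPKM with shNS, and the difference between lines was 0.58 (SE 0.11, adjusted p = 0.046). All 3 difference calls were lost when any 1 NB4 library was left out, and 1 was made without MM6 control library 1. The authors' deposited table has 4 of 48 members under the threshold in MM6, where 3.28% of all genes are (1.58% higher and 1.69% lower): TRIM6, TRIM24 (-0.84, adjusted p = 0.010), TRIM16 (-0.89, adjusted p = 0.034) and TRIM36 (1.12, adjusted p = 0.013).

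For TRIM22 the difference between lines was 1.11 (SE 0.32, adjusted p = 0.13) and for TRIM5 0.42 (adjusted p = 0.11), so a larger fall in NB4 was not shown for either. Over the omissions of a library the difference of TRIM22 ran between 0.73 and 1.48, the highest being without MM6 control library 2.

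**Figure D5:**
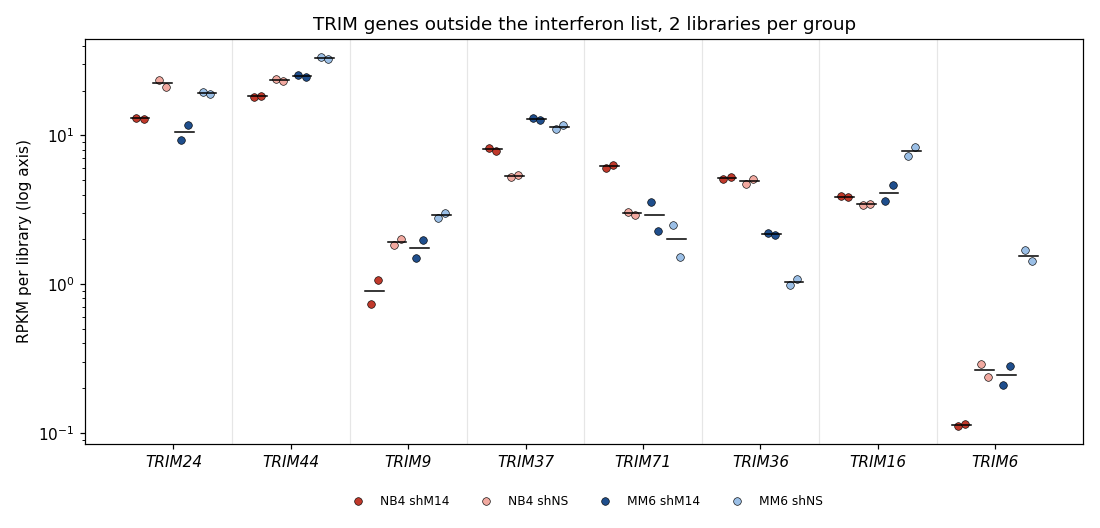
RPKM (log axis) of TRIM genes outside the interferon list in each library, with bars at the mean of 2 libraries. TRIM24, TRIM44 and TRIM9 are lower with shM14 in both lines, TRIM71 and TRIM37 are higher in NB4, and in MM6 the shM14 points lie lower for TRIM6 and TRIM16 and higher for TRIM36, with none of these 3 past the test in MM6 alone.

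The lines also differed in their baseline set of TRIM genes. Between MM6 with shNS and NB4 with shNS, 15 of 37 tested members were higher and 12 lower in MM6, or 73.0%, close to the 71.1% called over all genes (34.3% higher and 36.8% lower). TRIM32, a ligase with NHL repeats that is mutated in a limb-girdle muscular dystrophy, had 2166 of 101679309 reads over the 4 MM6 libraries and 0 of 105018849 reads over the 4 NB4 libraries. Against a floor of 3 reads for the 4 NB4 libraries together it was at least 746-fold higher in MM6. In MM6 it had 2.10 and 2.72 RPKM with shM14 and 3.30 and 3.55 RPKM with shNS (-0.38, adjusted p = 0.33). TRIM46, an organiser of microtubules at the start of the axon, had 4.63 and 5.37 RPKM in MM6 with shNS and 0.223 and 0.118 RPKM in NB4 with shNS, a ratio of 29.3. TRIM59, a membrane-anchored member, had 3.42 and 3.87 RPKM in MM6 with shNS and 0.298 and 0.367 RPKM in NB4 with shNS, a ratio of 11. These 3 genes and TRIM6 passed the filter only through MM6, so they could hardly fail to differ. In the reference annotation TRIM59 overlaps SMC4 and TRIM32 overlaps ASTN2, and the counting of shared reads is not stated.

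In the other direction, TRIM36 had 0.983 and 1.07 RPKM in MM6 with shNS and 4.72 and 5.08 RPKM in NB4 with shNS (-1.54, adjusted p = 0.00013). TRIM56 had 11.6 and 12.7 RPKM in MM6 with shNS and 34.8 and 37.0 RPKM in NB4 with shNS (-1.49, adjusted p = 0.00016). Of the 8 interferon-induced genes tested, 4 were lower in MM6 with shNS (TRIM5, TRIM21, TRIM22 and TRIM56), 1 was higher (TRIM38, 0.41, adjusted p = 0.0085) and 3 did not pass. Their 5 calls were a share of 62.5%, under the 71.1% of all genes, of which 36.8% were lower and 34.3% higher. TRIM65, a ligase that acts on the RNA sensor MDA5, had 35.1 and 39.5 RPKM in MM6 with shNS and 18.4 and 17.7 RPKM in NB4 with shNS (1.01, adjusted p = 0.00062). With knockdown it did not pass in either line. Leaving out NB4 control library 1 or 2 gave 14 and 17 calls among the members in place of 27.

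Proteins with the TRIM architecture that go by other symbols were read beside the family: PML, MEFV and MID1 were listed. PML, the scaffold of nuclear bodies, is fused to the retinoic acid receptor in NB4, so its reads there may come from the normal and the fused allele. It had 7.65 and 7.61 RPKM in NB4 with shM14, against 11.5 and 12.4 RPKM in NB4 with shNS (-0.58, SE 0.05, adjusted p = 0.0016). In MM6 it had 3.85 and 5.02 RPKM with shM14 and 5.98 and 8.23 RPKM with shNS (-0.57, SE 0.20, adjusted p = 0.29), and over both lines it fell by 0.58 (adjusted p = 0.015). MEFV, which encodes the inflammasome protein pyrin, had 3.77 and 4.39 RPKM in MM6 with shM14 and 1.46 and 1.07 RPKM in MM6 with shNS (1.17, adjusted p = 0.08). In NB4 it was below the filter, with 0.212 and 0.304 RPKM with shM14 and 0.161 and 0.346 RPKM with shNS.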

How the data were processed

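The authors deposited 1 table per cell line for the 8 libraries. Per the labels' protocols, poly(A) RNA was taken from 100 ng of total RNA, libraries were made with a directional kit and sequenced as single 50 bp reads. Not given in the sources used here are the aligner, counter, genome build, strand of counting and the authors' test. The RPKM values of each library are used as deposited; that unit was worked out from the values, since the headers give only library codes. The signal columns, as deposited, are means per group of reads scaled by library size factors. Per the file headers, the ratio and log2 columns give the fold change, shM14 over shNS, and its logarithm. Raw and adjusted p-values are likewise the authors' own, per the file headers.

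Whole reads were recovered from RPKM and group means within a tolerance of 0.01, and gave the depth. The main test was limma 3.58.1 in R 4.3.3 on log2(RPKM + 1), for genes that reached an RPKM of 1 in 2 or more libraries of the fit, with Benjamini-Hochberg adjustment at 0.05 over all genes; it was tested on simulated data. Each line was fitted alone, the common effect and the difference over all 8 libraries, and the shNS groups of the lines against each other. Alternatives were a pseudocount of 0.1, no filter, median-of-ratios scaling, limma's voom with TMM scaling on the recovered reads, a replicate block, all 8 libraries in 1 model, and each library left out. Tables were made with Python 3.11.15.

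Named were all interferon-induced members and, of the rest, the 10 with the smallest p in each line. Over all coding members, the 5 with the smallest p for the difference, the 5 between control lines and the 5 with the highest mean RPKM were added. Outside this rule, TRIM2, TRIM3 and TRIM33 were named from the fixed role groups, TRIM52-AS1 as the antisense RNA gene counted apart, and TRIM39 for its reads. The lists of other genes were fixed apart from the role groups. The members and lists were chosen with earlier results of these data known. Promoters are from RefSeq, GRCh38.p14, and 37 of the 48 members matched. Gene overlaps are from GENCODE release 29. The comparisons within the lines and between the control lines share libraries.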

Additional observations from a re-analysis of the deposited data

Results flagged for a closer look

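The change with knockdown differed between the lines, by the interaction of cell line and hairpin in limma, for 3 members. The MM6 change minus the NB4 change was -0.85 for TRIM6 (adjusted p = 0.024), -0.92 for TRIM16 (adjusted p = 0.037) and 0.58 for TRIM36 (adjusted p = 0.046). TRIM6 was lower in both knockdown libraries than in both controls of each line. It passed the expression filter in MM6 only through the shNS libraries and had 10 to 24 reads in each NB4 library, and voom on recovered reads gave an adjusted p of 0.16 for its difference. All 3 calls were lost when any 1 NB4 library was left out (adjusted p 0.12 to 0.25). TRIM16 was lower with shM14 in both MM6 knockdown libraries and higher in both NB4 knockdown libraries. TRIM36 was higher in both MM6 knockdown libraries, while its NB4 change of 0.07 did not pass.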

How the results depend on the processing

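Counts of called members depended on the model more than on the scaling. Against 17 calls in NB4, 1 model over all 8 libraries gave 11, and leaving out single libraries gave 14 to 17. Against 0 in MM6 that model gave 7, of which 1 was interferon-induced, the replicate number as a block gave 7 (TRIM6, TRIM8, TRIM9, TRIM16, TRIM16L, TRIM24 and TRIM36, adjusted p 0.0081 to 0.04, where 11.8% of all genes were called), and leaving out libraries gave 0 each time. Over both lines, 12 calls became 3 to 12 with a library left out, and the 6 interferon-induced calls became 3 with a pseudocount of 0.1, 3 with the replicate block, and 0 to 5 with a library left out. The 3 difference calls became 5 with the block and 0 to 4 with a library left out, and the 27 calls between control lines 14 to 31. The 7 interferon-induced calls in NB4 were 7 under every omission of a library, and 6 to 8 under the other alternatives. The cause of these shifts was not tested, except that omission of a library leaves fewer samples. Where an arm was left with 1 library, it was assumed to vary like the others.

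For single members, 540 of 657 alternative values kept their direction and side of the threshold, 99 no longer passed, 16 newly passed and 2 reversed: TRIM14 (-0.0985) and TRIM26 (-0.0311) in MM6 without MM6 control library 1. Over the omissions of a library their changes in MM6 ran between -0.10 and 0.56 for TRIM14 and between -0.03 and 0.11 for TRIM26. The labels give replicate numbers but state no pairing. The differences between library 1 and library 2 correlated across genes at 0.07 between shM14 and shNS in NB4 and at 0.69 in MM6, from 2 pairs in each line, so block values are given here alone. Depth limits the members with few reads, TRIM34 and TRIM69 above all.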

Other observations

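Partners of the TIF1 co-regulators were also read. Of SETDB1, the methyltransferase that TRIM28 recruits, ATF7IP, its cofactor, and the heterochromatin proteins CBX1, CBX3 and CBX5, 1 rose, 1 fell and 3 did not pass in NB4, where 47.4% of all genes were called, and in MM6 limma called none of the 5 (0 at an unadjusted p under 0.05). CBX1 had 49.5 and 50.7 RPKM in NB4 with shM14 and 42.8 and 40.8 RPKM in NB4 with shNS, a change of 0.26 (adjusted p = 0.013). SETDB1 had 13.1 and 13.5 RPKM with shM14 and 15.2 and 15.2 RPKM with shNS, a change of -0.18 (adjusted p = 0.029).

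Among members tested in neither line, TRIM2 and TRIM3, ligases with NHL repeats, stayed under 1 RPKM in every library. TRIM3 had 0.946 and 0.828 RPKM in MM6 with shM14 and 0.647 and 0.729 RPKM in MM6 with shNS, and TRIM2 0.140 and 0.105 RPKM with shM14 and 0.0433 and 0.124 RPKM with shNS. The antisense RNA gene TRIM52-AS1 had 3.23 and 3.04 RPKM in NB4 with shM14 and 3.61 and 3.05 RPKM in NB4 with shNS (-0.06, adjusted p = 0.52), while the coding gene TRIM52 fell there.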
